A study of Homo sapiens with 24 samples.

Results

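RAB25 and 9 genes of the routes it works in were followed in A2780, a line from a human ovarian cancer, carried as 2 transfected lines. The 10 genes were RAB25, RAB11A, RAB11FIP5, CLIC3, MYO5C, EHD1, EHD3, RAB5A, RAB7A and TFRC. They were chosen by name for their known roles, with earlier results of these data known. All 10 were measured, among 11940 genes with a probe set of their own, and where a gene had several probe sets, the one with the highest mean on the 24 arrays was used. A probe set is a group of short probes, most often against transcripts of 1 gene. Its value is a log2 signal, so a difference of 1 is a 2-fold difference. Signals depend on the probes, so the genes are not ranked by level, and a signal is called low only by where it lies beside those of liver genes.

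The cells carried either the vector pcDNA or Rab25, and each line gave 12 arrays. Starvation lasted 8 h for all cells, and the treated ones then received EGF at 10 ng/ml, IGF at 10 ng/ml, TGF beta at 5 ng/ml or fetal bovine serum (FBS) at 5%. Each line had 4 starved arrays, called controls in the labels, and 2 arrays of each treatment, shared evenly between experiment 1 and experiment 2. The treatment protocol puts the exposure at 8 h in experiment 1 and 24 h in experiment 2, while the sample names give 24 h for every treated sample, so the exposure and the experiment cannot be told apart where they may differ. Each line is a single transfected line, so what Rab25 does and what else sets that line apart cannot be told apart, and the labels do not name the promoter that drives Rab25. The labels call the samples independent without naming separate cultures, so p-values measure the spread between these arrays. As these are bulk samples, fewer cells with a transcript and less of it per cell cannot be told apart.

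Rab GTPases are switches that give each endosome its identity: RAB5A marks early endosomes, RAB7A late endosomes and the way to lysosomes, and RAB11A with its close relative RAB25 the recycling compartment that sends receptors and integrins back to the surface. RAB25 is found mainly in epithelia and is known from ovarian and breast cancer, where it has been tied to integrin recycling and invasion. CLIC3 works with RAB25 in returning integrins from late endosomes, RAB11FIP5 is an adaptor that binds Rab11 proteins, MYO5C is an actin motor of epithelial cells, EHD1 and EHD3 are ATPases that shape recycling tubules, and TFRC, the transferrin receptor, is the classic recycled cargo and brings iron into cells.

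As a check of the cells, the keratin genes KRT8 and KRT18 had mean signals of 12.75 and 13.99 and the ovarian epithelial factor PAX8 of 11.86. WT1, from the same marker list, had a mean of 7.05. EPCAM (5.25), KRT19 (5.41), CDH1 (5.50) and MUC16 (4.94), which mark many epithelial ovarian cancers, had means within the range of 7 liver genes, taken as a rough reference for low signal. Of these, 6 ran from 4.75 to 6.04 over the arrays and CYP3A4 from 6.46 to 7.04. Of markers of fibroblasts, DCN had a mean of 12.01, while LUM (5.07), COL3A1 (5.87), PDGFRA (6.40), COL1A2 (6.72) and COL1A1 (7.85) were lower. Of endothelium, CDH5 had a mean of 11.09, while PECAM1 (5.60) and VWF (5.85) lay among the liver genes. The 4 measured leukocyte markers had means from 5.31 to 5.77. The arrays of Rab25 cells in FBS stood apart: 4 of 6 fibroblast markers (COL1A1, COL1A2, COL3A1 and LUM) and 3 of 4 leukocyte markers were above all 22 other arrays on both. Of 8 ovarian epithelial markers, 1 (KRT19) was above the other arrays on both and 4 on at least 1. EPCAM and KRT19 reached 8.49 and 9.95 on the array of experiment 1. On that of experiment 2 KRT19 read 5.54 against at most 5.41 elsewhere, CDH1 5.76 against 5.72, and WT1 was barely above the highest other array at 8.35. The leukocyte markers stood above the other arrays at low signal: PTPRC read 5.68 and 5.70 against at most 5.56 elsewhere. CD68 read 5.55 and 5.64 against 5.53, and CD14 6.35 and 5.54 against 5.45. The mean fibroblast marker signal of an array ran from 6.81 to 7.49 in pcDNA and from 6.95 to 10.8 in Rab25 cells. The counts, FBS responses and correlations that use these arrays are given again without them. As a measure of RNA quality, the 3′ signal of actin less its 5′ signal was smaller with Rab25 in 8 of 10 matched pairs (mean difference -0.10, exact sign-flip permutation p = 0.0156, two-sided), while the same measure for GAPDH was lower in 1 of 10 (mean difference 0.03, exact permutation p = 0.0156), and its part in the line differences was not tested.

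After RAB25, the genes that differed most between the lines were CLIC3, MYO5C and EHD3. The 250 bases before the first base of each gene are shown because these 3 genes were raised together in Rab25 cells. They are RefSeq sequences of GRCh38.p14, 5′ to 3′ on the strand of the gene, at chr9:136996569-136996818 (minus strand) for CLIC3, chr15:52295805-52296054 (minus strand) for MYO5C and chr2:31233902-31234151 (plus strand) for EHD3. Capitals mark matches to 6 motifs searched on both strands, the GC box GGGCGG, the E-box CACGTG, the TATA box TATAAA, the CRE TGACGTCA, the AP-1 site TGANTCA and the CCAAT box.
CLIC3: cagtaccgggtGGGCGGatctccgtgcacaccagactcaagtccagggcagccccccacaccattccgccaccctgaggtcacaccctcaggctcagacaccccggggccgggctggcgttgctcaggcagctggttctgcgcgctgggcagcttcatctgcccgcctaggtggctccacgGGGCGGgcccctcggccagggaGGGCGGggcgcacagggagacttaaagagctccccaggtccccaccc
MYO5C: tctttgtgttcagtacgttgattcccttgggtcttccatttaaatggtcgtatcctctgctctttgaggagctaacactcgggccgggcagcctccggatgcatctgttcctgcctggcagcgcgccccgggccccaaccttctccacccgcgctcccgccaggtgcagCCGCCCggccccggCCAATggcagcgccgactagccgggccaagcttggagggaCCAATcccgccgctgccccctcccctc
EHD3: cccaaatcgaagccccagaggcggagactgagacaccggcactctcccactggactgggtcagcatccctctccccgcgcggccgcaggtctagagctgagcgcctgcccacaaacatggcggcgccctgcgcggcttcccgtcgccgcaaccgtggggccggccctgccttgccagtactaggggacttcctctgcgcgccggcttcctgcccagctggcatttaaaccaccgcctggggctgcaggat
CLIC3 held 3 GC boxes, with first bases at -239, -69 and -47 from the start. MYO5C held 1 GC box at -81 and 2 CCAAT boxes at -67 and -27. EHD3 held none of the 6. Of 35116 RefSeq promoters of the same length, 42.6% hold a GC box, 32.0% a CCAAT box, 10.7% a TATA box, 6.57% an AP-1 site, 6.34% an E-box and 1.65% a CRE. EHD1 has 2 starts in the table. The window of one held none of the motifs, and that of the other held 5 GC boxes, 2 CCAAT boxes and a TATA box at -31, of which the GC box at -93 and the CCAAT box at -87 adjoin. None of the 6 motifs was in all 3 windows shown, though CLIC3 and MYO5C both held a GC box. A match is only a run of letters, and no match says only that the letters are not in this window.

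**Figure D1:**
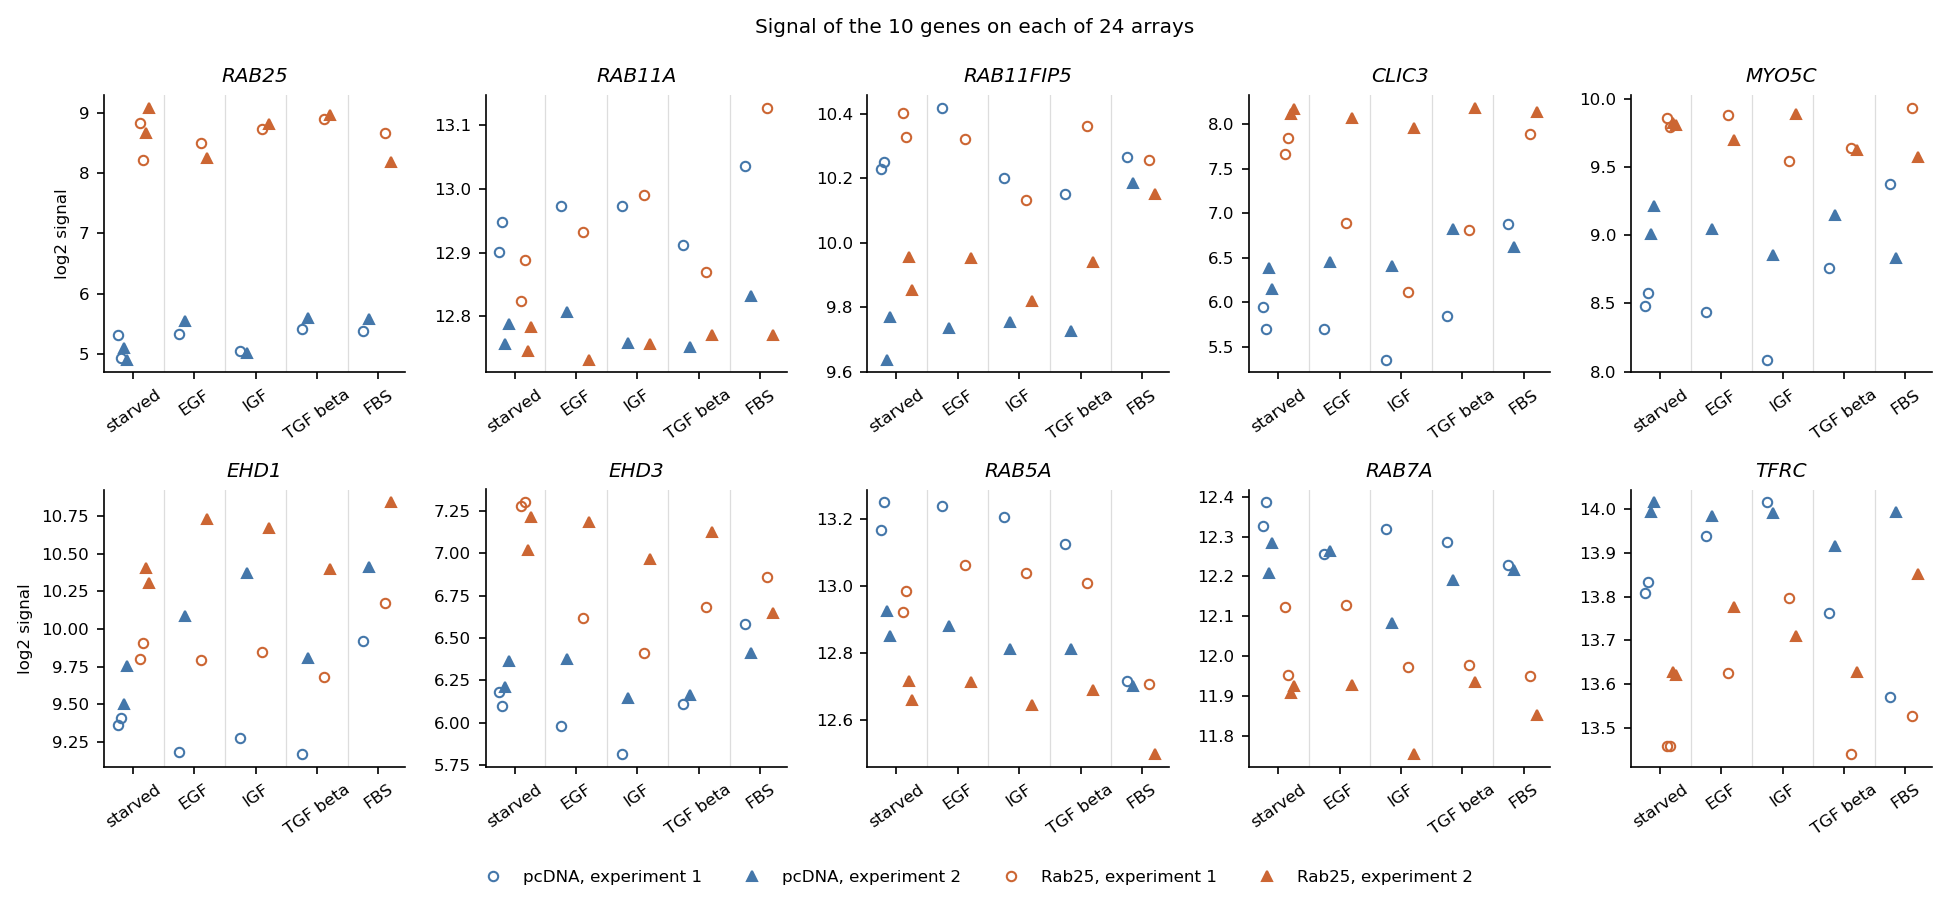
Log2 signal (y axis) of each of the 10 genes on all 24 arrays, by treatment (x axis), with pcDNA in blue, Rab25 in orange, open circles for experiment 1 and filled triangles for experiment 2; each panel has its own scale. The lines are fully apart for RAB25 and MYO5C, whereas RAB11A, RAB11FIP5 and RAB5A separate more by experiment.

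The comparison of the lines asked which of these genes differ in cells that express Rab25. By limma over all conditions, 5 of the 10 genes were higher in Rab25 cells (RAB25, CLIC3, MYO5C, EHD3 and EHD1), 3 were lower (RAB7A, TFRC and RAB5A), and RAB11A and RAB11FIP5 did not pass. The background is high: 24.7% of the 11940 genes passed in this comparison, 1091 higher and 1853 lower. That split rests on the scaling, since quantile normalization gave 1477 up and 1465 down, and centring each array on its median 2109 and 1084. The median log2 difference was 0.30 over the 10 genes and -0.01 over all genes. In starved cells alone the same 5 genes were higher and the same 3 lower, where 14.8% of all genes passed. These starved arrays also enter the comparison over all conditions.

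RAB25 itself checks the labels. In pcDNA cells its signal ran from 4.90 to 5.60 with a median of 5.32, and in Rab25 cells from 8.18 to 9.08 with a median of 8.69 (n = 12 arrays each). No array of one line came near the other, and the pcDNA values lay within the range of the 6 lower liver genes, so the fold is taken against a low signal. The fitted difference was 3.33 (SE 0.09, 10.1-fold), with 3.40 in experiment 1 alone and 3.26 in experiment 2 alone. Within the Rab25 line the mean signal was 8.93 with TGF beta, 8.76 with IGF, 8.70 ± 0.37 (SD, n = 4) when starved, 8.42 with FBS and 8.37 with EGF (n = 2 arrays for each treatment). All neighbours in that order differ by less than the SD of the starved arrays.

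CLIC3, a chloride intracellular channel family protein, showed the next largest line difference of the 10 genes. The starved arrays read 5.95 and 5.71 in experiment 1 and 6.38 and 6.15 in experiment 2 in pcDNA cells, against 7.66 and 7.84, and 8.12 and 8.18, in Rab25 cells. The starved arrays of the lines did not overlap. Over all conditions pcDNA arrays ran from 5.36 to 6.88 (median 6.27) and Rab25 arrays from 6.12 to 8.19 (median 7.93), with overlap in experiment 1 and none in experiment 2. The difference was 1.38 (SE 0.15, 2.60-fold, limma adjusted p = 2.56e-06) over all conditions and 1.90 (SE 0.24, 3.74-fold) in starved cells. Of the pcDNA signals, the lower ones lay among those of the 6 lower liver genes and the higher ones above them.

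MYO5C, the class V myosin of epithelial and secretory cells, separated the lines on every array. Starved pcDNA arrays read 8.48 and 8.57 in experiment 1 and 9.01 and 9.21 in experiment 2, and starved Rab25 arrays 9.86, 9.80, 9.82 and 9.81. The Rab25 arrays lay within a narrow band while the pcDNA arrays were spread by experiment. Over all conditions the ranges were 8.09 to 9.38 (median 8.84) in pcDNA and 9.54 to 9.94 (median 9.80) in Rab25 cells. The difference was 0.93 (SE 0.11, 1.90-fold, limma adjusted p = 7.77e-06), at 1.13 in experiment 1 alone and 0.72 in experiment 2 alone. A second MYO5C probe set, with a mean signal of 5.08, gave 0.03 (SE 0.05).

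Both EHD genes were higher in Rab25 cells. For EHD3 the starved pcDNA arrays read 6.18, 6.10, 6.21 and 6.36 and the starved Rab25 arrays 7.28, 7.30, 7.02 and 7.21, with no overlap. The EHD3 difference was 0.69 (SE 0.08, 1.61-fold, limma adjusted p = 5.94e-06) over all conditions and 0.99 (SE 0.13) in starved cells. Over all conditions pcDNA arrays ran from 5.81 to 6.58 and Rab25 arrays from 6.41 to 7.30, with overlap in experiment 1 and none in experiment 2. The lowest pcDNA signals lay among those of the lower liver genes, so this fold too is taken against a low signal. For EHD1, which lets cargo leave the recycling compartment, starved arrays read 9.36, 9.41, 9.50 and 9.75 in pcDNA and 9.80, 9.90, 10.40 and 10.30 in Rab25 cells. The starved lines were apart, but the other conditions overlapped in each experiment. The EHD1 difference was 0.51 (SE 0.07, 1.42-fold, limma adjusted p = 5.53e-05), and all 5 EHD1 probe sets gave 0.41 to 0.55. In a fit without the experiment term the EHD1 call was lost (adjusted p = 0.0727).

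RAB7A, TFRC and RAB5A were lower in Rab25 cells by small amounts. RAB7A read 12.33, 12.39, 12.21 and 12.28 in starved pcDNA and 12.12, 11.95, 11.91 and 11.92 in starved Rab25 arrays, and within each experiment no Rab25 array reached the lowest pcDNA array. Its difference was -0.30 (SE 0.03, 1.23-fold lower, limma adjusted p = 4.42e-06), a second bright probe set gave -0.45, and 2 others with means under 5 gave 0.05 and 0.03. TFRC read 13.81, 13.83, 13.99 and 14.02 in starved pcDNA and 13.46, 13.46, 13.63 and 13.62 in starved Rab25 arrays, again apart. The TFRC difference was -0.26 (SE 0.04, 1.19-fold lower, limma adjusted p = 0.000174), and -0.28 for its second probe set.

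RAB5A rested on less. Its starved arrays read 13.17, 13.25, 12.93 and 12.85 in pcDNA and 12.92, 12.98, 12.71 and 12.66 in Rab25 cells, with the lines overlapping and the experiments set apart in each line. The difference was -0.16 (SE 0.04, 1.12-fold lower, limma adjusted p = 0.00335). It did not pass after centring on array medians (-0.09), with the probe sets of the gene summarised by their median (-0.07), without the experiment term, or in experiment 1 alone (-0.14, adjusted p = 0.0763). The other 3 RAB5A probe sets gave -0.02, -0.12 and 0.06. In starved cells the call was also lost without 1 pcDNA array of experiment 1 or 1 Rab25 array of experiment 1, at -0.21 each, and in each experiment alone. The starved RAB7A call was lost in experiment 1 alone (-0.32, adjusted p = 0.0640).

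RAB11A, the ubiquitous relative of RAB25, ran from 12.75 to 13.04 in pcDNA and from 12.73 to 13.13 in Rab25 cells, with medians of 12.87 and 12.80. The arrays overlapped fully. The RAB11A difference was -0.02 (95% interval -0.08 to 0.05), and a second probe set gave -0.16 (adjusted p = 0.162 over all probe sets). RAB11FIP5 ran from 9.64 to 10.42 in pcDNA and 9.82 to 10.40 in Rab25 cells, with medians of 10.17 and 10.14. Its difference was 0.08 (95% interval -0.02 to 0.19, limma adjusted p = 0.262).

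The lines could be matched in 10 sets of treatment and experiment. Of the 10 genes, 8 had the same sign in 10 of 10 sets, beside 15.8% of all 11940 genes. These are the 8 that passed on the same arrays, so their signs are a description and not separate support. RAB11A was higher in Rab25 cells in 3 sets and RAB11FIP5 in 6. RAB25 and MYO5C were the 2 genes of the 10 whose 12 Rab25 and 12 pcDNA arrays did not overlap, against 1.51% of all genes. Without both Rab25 arrays in FBS the line differences were 3.43 for RAB25, 1.41 for CLIC3, 1.00 for MYO5C, 0.80 for EHD3, 0.55 for EHD1, -0.29 for RAB7A, -0.30 for TFRC and -0.17 for RAB5A, and the same 5 and 3 genes passed.

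**Figure D2:**
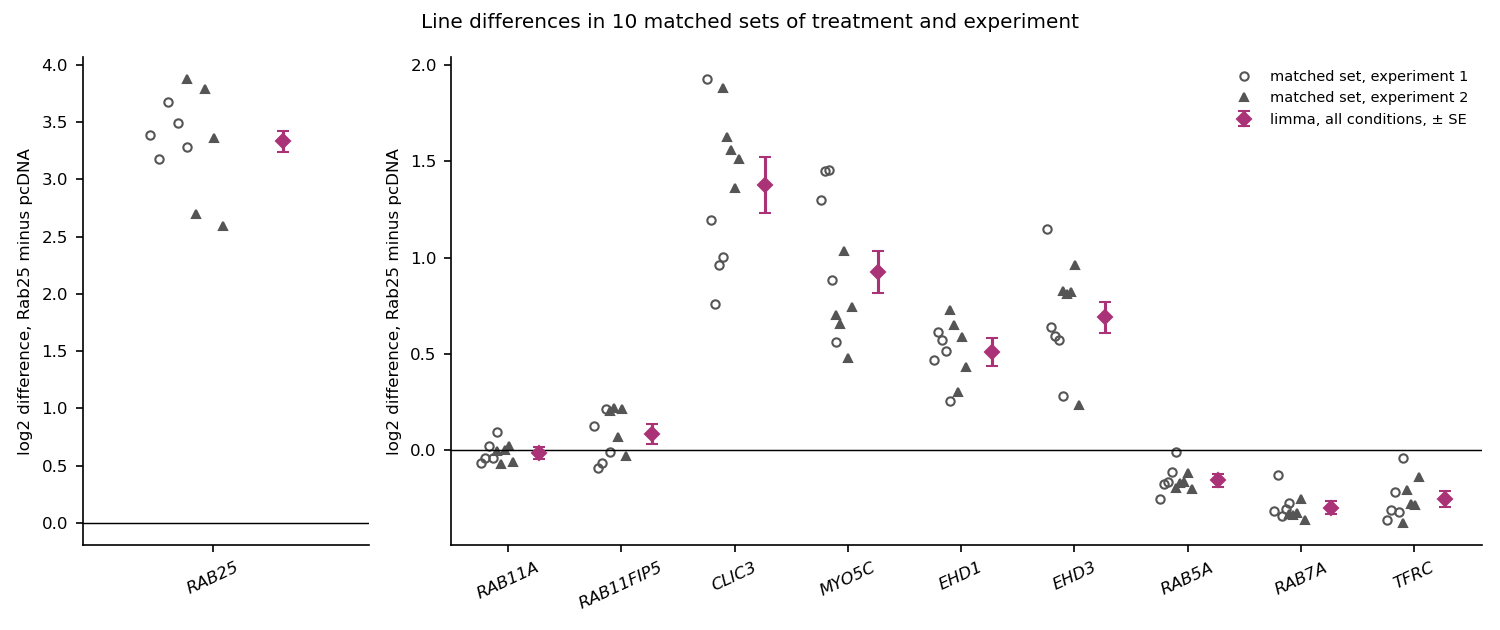
Log2 difference of Rab25 minus pcDNA (y axis) for each gene in 10 matched sets of treatment and experiment (grey; open circles experiment 1, filled triangles experiment 2), with the limma estimate over all conditions and its SE in purple; RAB25 has a scale of its own. CLIC3, MYO5C, EHD1 and EHD3 lie above 0 and RAB5A, RAB7A and TFRC below 0 in 10 of 10 sets, and RAB11A and RAB11FIP5 lie on both sides.

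The line differences were read in the other genes of these routes as well, in a list of 54 genes of which 43 were measured. Of these, 6 were higher and 10 lower in Rab25 cells over all conditions, beside 24.7% of all genes called, with a median of -0.01, which is also the median of all genes. Without both Rab25 FBS arrays 7 were higher and 8 lower, of which 14 were called the same way with all arrays, and 24.7% of all genes passed. EHD2 and LAMP1 were then lost (adjusted p = 0.0594 and 0.0564), and RAB11FIP3 was gained at 0.16 (SE 0.05). The Rab11 adaptors RAB11FIP1 (-0.36, SE 0.09) and WDR44 (-0.17, SE 0.05) were 2 of 4 measured effectors that fell, and RAB11B, the third Rab11 subfamily gene, was at -0.01 and did not pass. Recycling GTPases moved both ways, with RAB4B at -0.47 (SE 0.09) and RAB35 at -0.30 (SE 0.04) against RAB14 at 0.11 (SE 0.04). Of 3 sorting nexins, SNX17 was higher by 0.12 (SE 0.03). The nexin SNX4, which returns TFRC to the surface, was lower by -0.39 (SE 0.04). Among early endosome genes the RAB5 effector RABEP1 (0.27, SE 0.07) and RAB5C (0.13) rose and the tether EEA1 fell (-0.33, SE 0.09). Of 9 late endosome and retromer genes, VPS11 (0.37, SE 0.05) and VPS41 rose and LAMP2 (-0.23, SE 0.04), LAMP1 and VPS39 fell. EHD2, the caveolar relative of EHD1 and EHD3, fell by 0.18 on the log2 scale (SE 0.05), and none of the 4 other measured CLIC genes passed.

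In starved cells 5 of the 43 genes were higher and 7 lower in the Rab25 line, where 14.8% of all genes passed. EEA1 had the largest of these differences at -0.85 (SE 0.16), followed by SNX4 at -0.53 (SE 0.07). RAB11FIP3, a Rab11 adaptor of recycling and cell division, was higher by 0.41 (SE 0.08), RAB5C by 0.35 (SE 0.06) and VPS11 by 0.37 (SE 0.08), and RAB35 was lower by -0.37 (SE 0.07). CLIC2, a relative of CLIC3, was higher by 0.26 (SE 0.08). Because TFRC transcripts are known to be set by iron through iron regulatory proteins, 12 iron handling genes were read beside it, 9 of them measured. Over all conditions 5 of the 9 passed, beside 24.7% of all genes: ACO1, iron regulatory protein 1, was higher by 0.21 (SE 0.05) and the ferritin receptor NCOA4 by 0.11 (SE 0.03), while the ferritin light chain FTL (-0.14, SE 0.03), the ferrireductase STEAP3 (-0.25, SE 0.07) and the TFRC partner HFE (-0.24, SE 0.07) were lower. Without both Rab25 FBS arrays HFE was lost (-0.15, SE 0.06). In starved cells FTL was the 1 iron gene that passed, at -0.18 (SE 0.06).

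**Figure D3:**
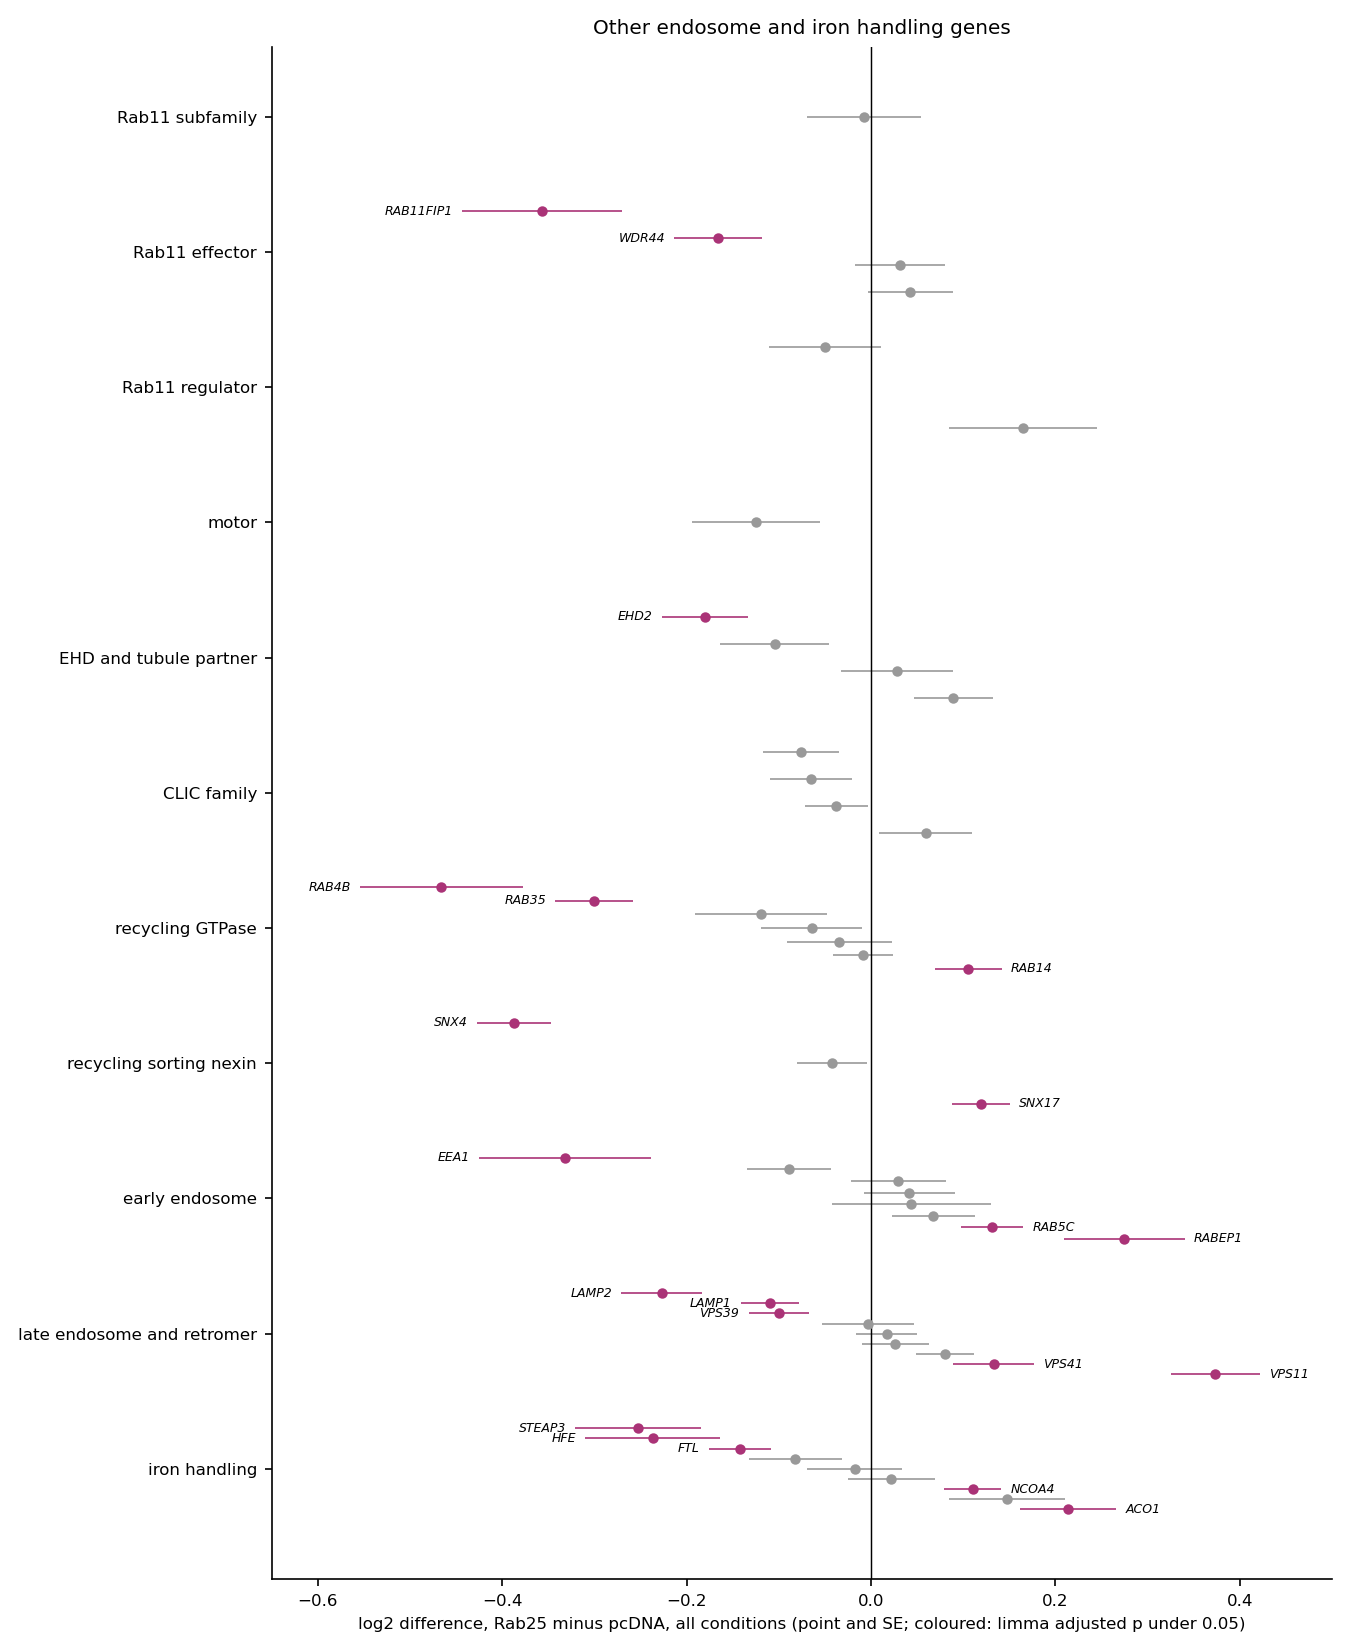
Log2 difference of Rab25 minus pcDNA over all conditions with its SE (x axis) for 43 endosome genes and 9 iron handling genes, grouped by role (y axis); purple points passed limma at an adjusted p of 0.05 over all genes and are named, grey points did not. Within the recycling GTPases, the early endosome and the late endosome genes some passed on each side of 0.

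The growth factors were then compared with starvation over both lines, which uses the same 8 starved arrays for all 4 treatments. The starved samples are labelled 8 h and the treated ones had further hours in culture, so treatment and time in culture cannot be told apart in these differences. No gene of the 10 passed with EGF by limma (0 at an unadjusted p under 0.05), and 0% of all 11940 genes did, with 811 at an unadjusted p under 0.05. With IGF, 2.71% of all genes passed and none of the 10. Beside 1901 of all 11940 genes, 5 of the 10 had an unadjusted p under 0.05. The lowest was that of EHD3, at -0.37 (SE 0.11, limma adjusted p = 0.0918), which passed with array weights (adjusted p = 0.0342) and with the compared groups alone (0.0402). CLIC3 was at -0.54 (SE 0.21, adjusted p = 0.204), and ranged from -0.84 (adjusted p = 0.0329) without the Rab25 IGF array of experiment 2 to -0.23 (adjusted p = 0.842) without that of experiment 1. EHD1 was at 0.24, TFRC at 0.15 and RAB7A at -0.11. With treatment by experiment terms, at the same estimates, EHD3, CLIC3, TFRC and EHD1 passed (limma adjusted p = 0.00548, 0.00771, 0.0187 and 0.0344). These are the genes whose response differed between the experiments by the F test below. Over the alternatives run, 10 to 1298 of all genes passed with IGF. With TGF beta, 1.6% of all genes passed and none of the 10. RAB25, at 0.33 (SE 0.13, adjusted p = 0.335), was the 1 gene of the 10 with an unadjusted p under 0.05, beside 1253 of all 11940 genes. It was at 0.44 (SE 0.19) in pcDNA cells, where its signal is low, and at 0.23 (SE 0.19) in Rab25 cells. Of the 43 other endosome genes, none passed with EGF, IGF or TGF beta. At an unadjusted p under 0.05 there were 2, 6 and 10 of the 43, beside 811, 1901 and 1253 of all 11940 genes. Of the iron genes FBXL5, an iron sensor that degrades iron regulatory protein 2, was lower with TGF beta by -0.37 (SE 0.07, limma adjusted p = 0.0142).

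FBS moved 2 of the 10 genes, EHD1 upward and RAB5A downward, where 17.2% of all genes passed. EHD1 in FBS read 9.92 and 10.41 in pcDNA and 10.17 and 10.84 in Rab25 cells, and each value was above the starved arrays of its line and experiment. The difference was 0.53 (SE 0.11, 1.45-fold, limma adjusted p = 0.00267), at 0.43 in experiment 1 alone and 0.64 in experiment 2 alone, and 4 of 5 EHD1 probe sets passed over all probe sets. It was lost with array weights (0.54, adjusted p = 0.126) and without the experiment term (adjusted p = 0.285). RAB5A in FBS read 12.72 and 12.70 in pcDNA and 12.71 and 12.50 in Rab25 cells, each below the starved arrays of its line and experiment. The RAB5A difference was -0.28 (SE 0.05, 1.21-fold lower, limma adjusted p = 0.00181), and it did not pass in experiment 2 alone (-0.19, adjusted p = 0.137), with the median of probe sets (-0.16) or without the experiment term (adjusted p = 0.222).

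RAB11A was at 0.11 in FBS (SE 0.04, limma adjusted p = 0.0887) and passed after either other scaling, at 0.13 and 0.17. CLIC3 was at 0.39 (SE 0.21) and RAB11FIP5 at 0.16 (SE 0.07), neither past the threshold. With treatment by experiment terms CLIC3, RAB11FIP5 and RAB11A passed (limma adjusted p = 0.0195, 0.0294 and 0.0485). Over the alternatives run, 367 to 4109 of all genes passed with FBS. CLIC3 was at 0.59 in experiment 1 alone, which passed, and at 0.18 in experiment 2 alone, which did not. It ranged from 0.12 without the pcDNA FBS array of experiment 1 to 0.66 without that of experiment 2 (adjusted p = 0.824 and 0.0336). RAB11FIP5 passed in experiment 2 alone (0.36) and was at -0.04 in experiment 1 alone. In a fit without both Rab25 FBS arrays the FBS response can be had in pcDNA cells, where 10.4% of all genes passed. There EHD1 was at 0.66 (SE 0.15, limma adjusted p = 0.0128) and RAB5A at -0.34 (SE 0.07, adjusted p = 0.00950), and both passed. CLIC3 (0.71), RAB11FIP5 (0.25) and RAB11A (0.09) did not. Of the 43 other endosome genes, 2 rose in FBS, PACSIN3 (0.33, SE 0.09), a partner of EHD proteins, and RAB8A. A further 11 fell, among them VPS11 (-0.38, SE 0.07), the ESCRT adaptor HGS (-0.29, SE 0.06), RAB5B (-0.29, SE 0.07), RAB35 (-0.27, SE 0.06) and RAB11FIP3 (-0.24, SE 0.07). With 13 of 43 called, 17.2% of all genes passed, 768 higher and 1289 lower, and the median of the 43 was -0.06 against -0.03 for all genes. In pcDNA cells without the Rab25 FBS arrays 3 of the 43 rose and 3 fell, of which PACSIN3, RAB8A, HGS and RAB11FIP2 were called the same way in both fits. RAB35 (-0.27, adjusted p = 0.0545), VPS11 (-0.28) and RAB5B (-0.23) were no longer called, and RAB11FIP3 was at 0.18 (adjusted p = 0.209), the opposite sign.

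Whether the lines answered the treatments differently was tested by the interaction of line and treatment. None of the 10 genes passed in any of the 4, where 0%, 0%, 0% and 0.209% of all genes passed for EGF, IGF, TGF beta and FBS. Beside 415, 253, 622 and 1315 of all 11940 genes at an unadjusted p under 0.05, there were 1, 0, 0 and 3 of the 10. In size these were led by RAB25 with EGF, at -0.69 (SE 0.26, 95% interval -1.25 to -0.13, limma adjusted p = 1.00), and EHD3 with FBS, at -0.73 (SE 0.23, 95% interval -1.21 to -0.25, adjusted p = 0.219). RAB25 with FBS was at -0.69 (adjusted p = 0.338) and TFRC with FBS at 0.28 (adjusted p = 0.393). Part of each RAB25 value is a rise in pcDNA cells, of 0.37 (SE 0.19) with EGF and 0.42 (SE 0.19) with FBS, where its signal is low. EHD3 in FBS read 6.58 and 6.41 in pcDNA and 6.86 and 6.65 in Rab25 cells. The pcDNA values were above and the Rab25 values below the starved arrays of their own line and experiment, so the lines lay closest together in FBS, at 0.26 (SE 0.19) against 0.99 when starved. With treatment by experiment terms that difference passed (adjusted p = 0.0413). Of the 43 other endosome genes RAB11FIP3 was the 1 that passed, with FBS, at -0.85 (SE 0.13, limma adjusted p = 0.00808). Both differences rest on the Rab25 FBS arrays. In these, 4 of 6 fibroblast markers stood apart, and 3 of 4 leukocyte markers did so at low signal. The part of those arrays in both differences was not tested.

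The experiments differed more than most treatments did, and for several of the 10 genes more than the lines. Between experiment 2 and experiment 1, CLIC3 (0.74, SE 0.14), EHD1 (0.65, SE 0.07) and TFRC (0.16, SE 0.04) were higher, and RAB11FIP5 (-0.40, SE 0.05), RAB5A (-0.29, SE 0.03), RAB11A (-0.18, SE 0.03) and RAB7A (-0.11, SE 0.03) were lower, so 7 of 10 passed where 40.4% of all genes did. EHD1 was higher in experiment 2 in 10 of 10 comparisons of like arrays, and RAB11A, RAB11FIP5 and RAB5A were lower in 10 of 10. RAB25 (0.04), MYO5C (0.18) and EHD3 (0.16) did not pass, although EHD3 did after either other scaling (0.18 and 0.21) and without the Rab25 FBS arrays (0.19), and MYO5C with array weights (0.30) and without either pcDNA FBS array (0.25). The RAB11A and RAB7A calls were lost with the median of probe sets, second probe sets gave -0.01 and 0.01, and the RAB7A call was also lost after centring on array medians (-0.06). The starved arrays, which had no exposure, gave the same signs in both lines for all 7 genes that passed: in pcDNA and Rab25 cells RAB11FIP5 differed by -0.54 and -0.46, RAB5A by -0.32 and -0.27, RAB11A by -0.15 and -0.09, RAB7A by -0.11 and -0.12, CLIC3 by 0.44 and 0.39, EHD1 by 0.24 and 0.50, and TFRC by 0.18 and 0.17. The labels do not say what else set the experiments apart. The line difference itself did not pass as different between experiments for any of the 10, where 0.126% of all genes did. Beside 1049 of all 11940 genes, 1 of the 10 had an unadjusted p under 0.05. The nearest was MYO5C, at -0.44 (SE 0.18, limma adjusted p = 0.492). It passed with array weights (-0.54) and without either pcDNA FBS array (-0.63). Leaving out either of these gave the same fit, here and for the 0.25 above, since the array left is fitted by its group term alone.

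The response to treatment differed between the experiments for 4 of the 10 genes by limma's F test over the 4 treatments, CLIC3, EHD1, EHD3 and TFRC, against 16.9% of all genes. CLIC3 gave the clearest case. With IGF in experiment 1 it read 5.36 in pcDNA and 6.12 in Rab25 cells, below starved means of 5.83 and 7.75. With IGF in experiment 2 it read 6.41 and 7.96, beside starved means of 6.27 and 8.15. The IGF response was -1.06 in experiment 1 alone and -0.02 in experiment 2 alone, a difference of 1.03 (SE 0.22, limma adjusted p = 0.0393 for this term; F = 11.4, adjusted p = 0.0056 over the 4 treatments). In Rab25 cells of experiment 1, CLIC3 was lower than when starved with EGF (6.90) and TGF beta (6.81) as well, but not with FBS (7.89).

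The EHD1 response to IGF was also higher in experiment 2. With IGF in experiment 1 it read 9.28 and 9.84 in pcDNA and Rab25 cells, beside starved means of 9.39 and 9.85, and in experiment 2 it read 10.37 and 10.67, above starved means of 9.63 and 10.35. The IGF term was 0.59 (SE 0.13, limma adjusted p = 0.0424), and EGF gave a like difference of 0.55 (SE 0.13, adjusted p = 0.261). The F test gave 7.44 (adjusted p = 0.0215).

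For EHD3 the F test gave 6.58 (limma adjusted p = 0.0309), while no single term passed: EGF gave 0.50 (adjusted p = 0.409) and IGF 0.46 (adjusted p = 0.176), with an IGF response of -0.60 in experiment 1 and -0.15 in experiment 2. TFRC read 14.02 and 13.80 with IGF in experiment 1 in pcDNA and Rab25 cells, above starved means of 13.82 and 13.46, and in experiment 2 it differed from the starved means by -0.01 and 0.09. Its F was 6.62 (limma adjusted p = 0.0303), with no single term past the threshold (IGF -0.23, adjusted p = 0.177, and FBS 0.20, adjusted p = 0.0723). The TFRC call was lost with array weights (adjusted p = 0.125) and without any 1 FBS or IGF array of either line (0.0671 to 0.113). The EHD3 call was lost with array weights (0.0904), after either other scaling (0.0544 and 0.104), and without 1 starved pcDNA array of experiment 2, either pcDNA FBS array, or any 1 EGF, FBS or IGF array of the Rab25 line (0.0529 to 0.0957). Both calls were also lost without both Rab25 FBS arrays, which is the same fit as leaving out either. This holds for each line and treatment, since the 1 array left is fitted by its group term alone. Losses without either of 2 such arrays are therefore not separate results. The EHD1 call was lost without either pcDNA IGF array (adjusted p = 0.0561). In all of these F tests, each line and experiment has 1 array of a treatment. The spread therefore comes from the starved arrays and from how far the change between experiments differs between the lines. RAB11FIP5 and MYO5C did not pass the F test (adjusted p = 0.0733 and 0.125), but their FBS terms did, at 0.40 (adjusted p = 0.0125) and -0.74 (adjusted p = 0.0420). Without both Rab25 FBS arrays these terms were 0.41 and -0.83 and did not pass (adjusted p = 0.0648 and 0.115). RAB11FIP5 passed the F test after either other scaling and without either Rab25 EGF array.

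**Figure D4:**
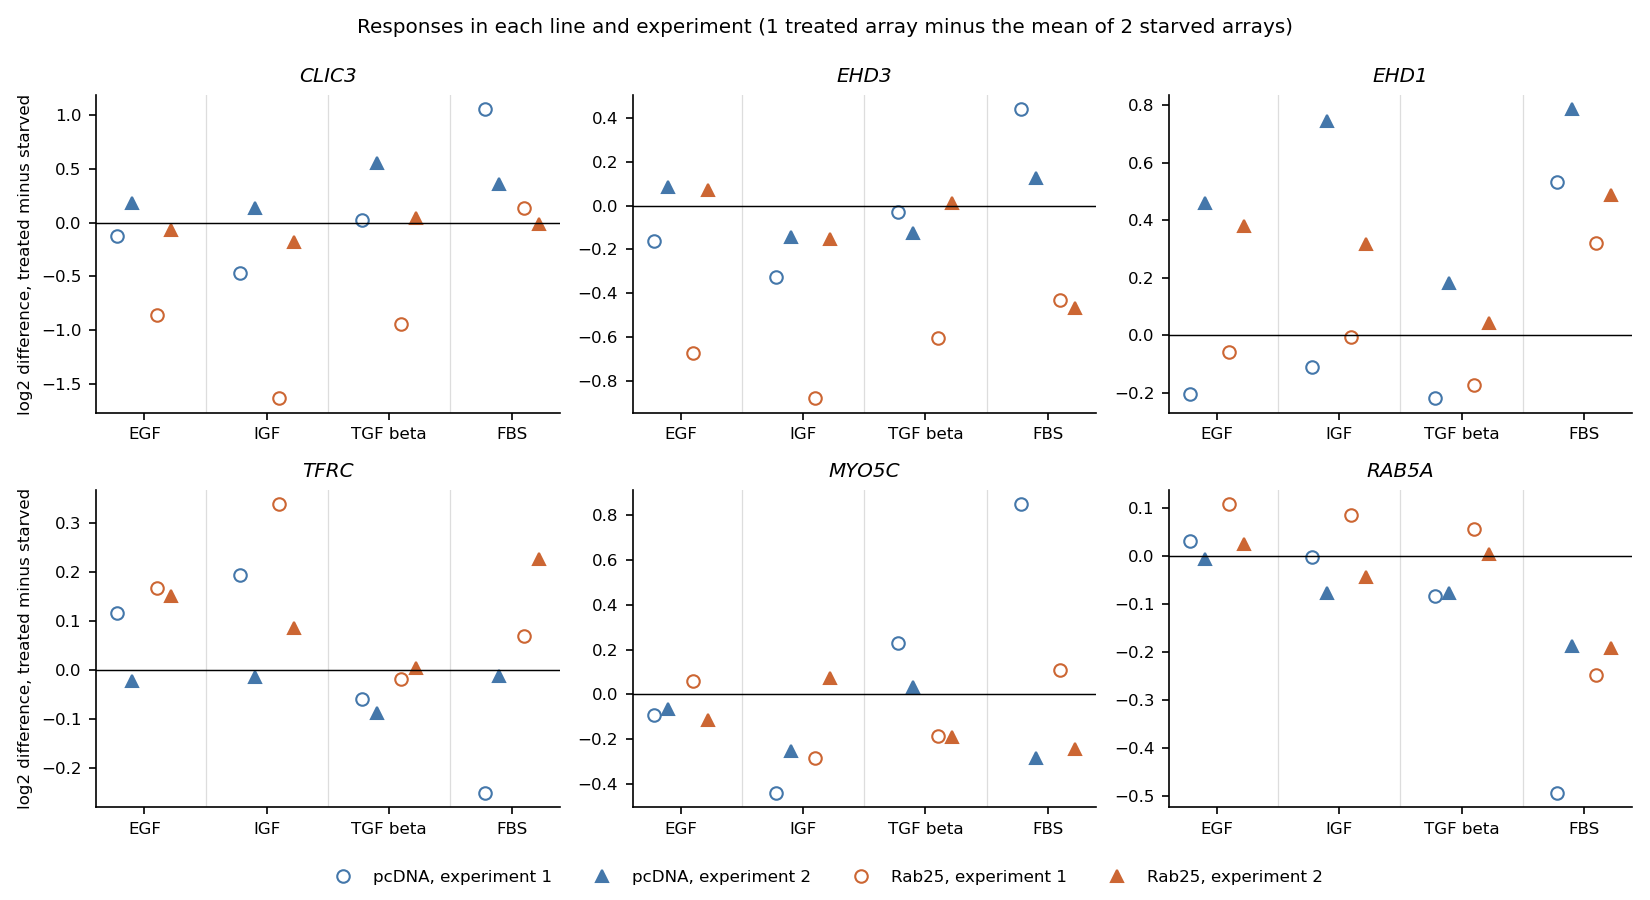
Log2 difference of the treated array less the mean of both starved arrays from that line and experiment (y axis) for 6 genes and 4 treatments (x axis), with pcDNA in blue, Rab25 in orange, open circles for experiment 1 and filled triangles for experiment 2; each panel has its own scale. CLIC3 and EHD3 are lowest with IGF in Rab25 cells of experiment 1, EHD1 is highest with FBS and IGF in pcDNA cells of experiment 2, and RAB5A is below 0 with FBS in all 4.

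Likeness among the 10 genes is given as a description over the 24 arrays, which share lines, treatments and experiments and are not independent. CLIC3 and EHD3 followed each other (r = 0.91, and 0.74 after the means of line and experiment were taken out), and EHD1 and RAB5A ran opposite (r = -0.90, and -0.70 after). TFRC ran opposite to CLIC3 (r = -0.60, and -0.74 after) and to EHD3 (r = -0.75 both ways). RAB25 followed MYO5C (0.87), EHD3 (0.84) and CLIC3 (0.80), but with the means of line and experiment taken out these were 0.16, 0.15 and 0.10. RAB25 ran opposite to RAB7A (-0.86, and 0.00 after). Over the 22 arrays without Rab25 cells in FBS, r was 0.94 for CLIC3 and EHD3 (0.87 after), -0.88 for EHD1 and RAB5A (-0.65 after), -0.63 for CLIC3 and TFRC (-0.82 after) and -0.75 for EHD3 and TFRC (-0.72 after).

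Among all 11940 genes, the genes most like RAB25 by Pearson r over the 24 arrays were FKBP1B (0.968), FAU (0.962) and SART1 (0.959). For CLIC3 they were LDOC1 (0.956), EFEMP2 (0.95) and RAB1B (0.94), and with line and experiment means taken out GPX4 (0.92), GPX1 (0.90) and DHRS1 (0.88). MYO5C was most like DSP (0.931), PRDX2 (0.925) and CPS1 (0.924), and after the means were taken out ARHGAP11A (0.90), CBX5 (0.90) and HJURP (0.89). EHD3 was most like EFEMP2 (0.94), ARHGAP22 (0.92) and VPS51 (0.91), and EHD1 like UBE2N, TIMM10 and EED (0.94 each). After the means were taken out EHD3 was most like CST3 (0.89) and EHD1 like POP1 (0.905) and JUN (0.87). RAB5A was most like SYT1 (0.98), HSPA13 (0.97) and UBE2B (0.97), RAB7A like RAB2A (0.96), RAB11A like PSMD10 (0.92), RAB11FIP5 like NCOA6 (0.89) and TFRC like UBE2V2 (0.91). Over the 22 arrays without Rab25 cells in FBS the r of the genes named here ran from 0.857 to 0.974.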

How the data were processed

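For 24 arrays the authors deposited 1 value per probe set, on a log2 scale. Per the submitters' processing notes MAS5 and RMA were used, whose versions, roles and order are not given in the sources used here. Array medians ran from 7.02 to 7.35, and the number of arrays limits the precision. Of 22930 probe sets, 524 were controls, 19415 had 1 gene symbol, 125 several and 2866 none, and the probe set of highest mean stood for each of 11940 genes.

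Genes were fitted with limma 3.58.1 in R 4.3.3 (lmFit, eBayes), with 10 groups and an experiment term. P-values were adjusted by Benjamini-Hochberg across the 11940 genes and called at 0.05, and SE is limma's standard error. The labels name the experiment of each array, which pairs them: deviations of the 45 pairs of groups correlated at a median of 0.658 (lowest 0.0924, highest 0.858). A fit with treatment by experiment terms gave the F test. Matched sets set 1 line against the other at 1 treatment and experiment, with starved arrays averaged. Each experiment alone leaves 2 residual degrees of freedom.

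The 10 genes, the gene lists and the rule for naming were chosen with earlier results of these data known. The rule named the 10 genes, up to 6 list genes of lowest p that passed in a described contrast, the 3 genes most alike to each of the 10, of which some are not printed, and liver genes as a reference. List genes named beyond those 6 were chosen after their values were seen. Genes of the lists without a probe set of their own were not analysed here. In simulated data of the same 11940 genes, 200 genes were changed, with independent errors and no other group differences. There the fit recovered 97.0% of true log2 changes of 0.5 between the lines and 89.6% with EGF. In the EGF interaction it recovered 31.3%, and 86.6% at 1. In the measured data 24.7% of genes passed between the lines and 16.9% by the F test, so these shares need not hold there. Promoters came from RefSeq (GRCh38.p14), with all 10 genes matched. Figures and counts used Python 3.11.15.

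Alternatives were no experiment term, quantile normalization, centring on array medians, array weights, limma's trend and robust prior, a median over probe sets, dropping the lowest 40% of genes, only the groups compared, each experiment alone, treatment by experiment terms, each array left out, and both Rab25 FBS arrays left out. The FBS response in pcDNA cells, the gene lists and the correlations without both Rab25 FBS arrays were added after the data were seen.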

Additional observations from a re-analysis of the deposited data

Results flagged for a closer look

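The response to treatment differed between experiments for 4 of the 10 genes by limma's F test, with CLIC3 at F = 11.4, EHD1 at 7.44, TFRC at 6.62 and EHD3 at 6.58. The cause was not tested, and the exposure given in the protocol differs between the experiments as well. No array stood apart from the others of its group in the 20 groups of 4 starved arrays that were examined, 1 for each line and gene.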

How the results depend on the processing

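The counts of the 10 genes that passed between the lines, 5 higher and 3 lower, came within 1.5 times in the alternatives run, except that 1 gene was lower in starved cells in experiment 1 alone. With IGF, where 0 passed, 1 was lower with array weights or only the groups compared, 3 lower in experiment 1 alone, 1 higher in experiment 2 alone, and 2 higher and 2 lower with treatment by experiment terms. Leaving out 1 array gave 0 to 2 lower with IGF, and the 2 came without the Rab25 IGF array 2. With FBS, where 1 rose and 1 fell, 2 rose after either other scaling, with the trend and robust prior, the median of probe sets, only the groups compared or experiment 2 alone, 3 in experiment 1 alone and 4 with treatment by experiment terms, while 0 rose with array weights. Leaving out 1 array gave 1 to 2 that rose, and the 2 came without the pcDNA or the Rab25 FBS array 2. In FBS 0 fell with the median of probe sets or in experiment 2 alone. Between the lines' FBS responses 1 gene was lower with treatment by experiment terms. Between experiments 5 were higher with array weights and 2 lower with the median of probe sets. For the line difference between experiments, 1 was lower with array weights, and leaving out 1 array gave 0 to 1. By the F test 2 passed with array weights and without both Rab25 FBS arrays, and 2 to 4 when 1 array was left out, with 2 without either FBS or IGF array of either line. In the F test, leaving out either of the 2 arrays of a line and treatment, or both, is the same fit. Without the replicate block, that is without the experiment term that pairs the arrays, 0 rose and 0 fell with FBS. No value of the 10 genes that passed reversed. In the lists, 11 of the 43 endosome genes fell with FBS and 3 did in pcDNA cells without both Rab25 FBS arrays, a fit with fewer FBS arrays. Without those arrays 1 endosome gene was higher with IGF and 1 iron gene in starved Rab25 cells, where 0 had been.

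Over all genes, counts moved by more than 1.5 times. Between the lines 2944 genes passed, and 1665 to 3858 under the alternatives. In starved cells 1767 passed, with 730 to 3273, and with 1 array left out 1195 to 2145. With EGF 0 passed, with 0 to 106, with IGF 323 (10 to 1298), with TGF beta 191 (55 to 498), and with FBS 2057 (367 to 4109). In the FBS difference between the lines 25 passed (3 to 115, and 16 to 202 with 1 array left out), and by the F test 2013 (669 to 2437). For the line difference between experiments 15 passed (10 to 296, and 0 to 420 with 1 array left out).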
